A study of Homo sapiens with 18 samples.

Results

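The zinc finger gene clusters at the distal end of human chromosome 19 were examined as all peak summits inside 2 windows of the hg19 build, 19:52300-54000 kb and 19:56600-59000 kb. They are called here the proximal and the distal cluster, by their distance from the centromere. The windows were set by position and together span 4.1 Mb. They held 1763 of the 946841 summits in 13 deposited summit lists, 656 in the proximal and 1107 in the distal cluster.

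The lists come from chromatin immunoprecipitation followed by sequencing (ChIP-seq) of 3 histone marks in human lung adenocarcinoma cells. H3K4me3 is known to mark active gene starts, H3K27ac active promoters and enhancers, and H3K4me1 enhancers and the flanks of promoters. The study belongs to work on how STING, a signalling protein of innate immunity, acts on dormant metastasis. Its 4 conditions are named below as in the sample titles.

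TGFb is H2087-LCC cells given TGF-β1, a growth factor that acts on cell state, at 100 nM for 4 days by the labels. SO1 is a line labelled H2087-LCC-SO1. H2030 is a separate lung adenocarcinoma line. LCC is H2087-LCC without that treatment and is the condition the others are set against. TGFb, SO1 and LCC all trace to H2087 by their names. The H2087-LCC and SO1 medium held several additives that the H2030 medium lacked, among them hydrocortisone, insulin, transferrin and epidermal growth factor, so line and medium cannot be told apart in any H2030 difference. Each condition had 1 library per mark, except LCC H3K27ac with 2 libraries numbered as biological replicates. The 5 input libraries were not analysed here.

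The genes of these clusters mostly encode zinc finger proteins, which bind DNA through tandem C2H2 fingers. Many also carry a KRAB domain, which recruits the corepressor TRIM28 and silencing enzymes to the bound site. Their best known targets are transposable elements. The genes arose by tandem duplication, so neighbours resemble each other, and in many cell types the bodies of such genes carry the repressive mark H3K9me3 while their promoters can carry active marks.

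The gene content was read from RefSeq gene order on GRCh38.p14, a different build from that of the summits, and was used for names and neighbours only. From FPR3 to ZNF331, the genes that flank the proximal cluster, RefSeq lists 100 genes, of which 48 are protein-coding and 38 of these have a zinc finger symbol (ZNF, ZSCAN, ZFP, ZIK, ZIM or PEG3). From ZNF444 to SLC27A5, which flank the distal cluster, it lists 152 genes, 81 of them protein-coding and 63 of these with such a symbol. No hg19 gene annotation was at hand, so no summit below is assigned to a gene.

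RefSeq promoter sequences, read as the 250 bases before the annotated start, were found for 31 of the 38 and 54 of the 63 zinc finger genes, with 44 and 63 promoters. Most were rich in the dinucleotide CpG. The CpG ratio, the observed number of CpGs over that expected from the base composition, had a median of 0.817 in the proximal and 0.833 in the distal cluster, against 0.711 over 22199 promoters of all protein-coding genes. A ratio of at least 0.6 was reached by 86.4% and 85.7% of the cluster promoters, against 60.2% of those of protein-coding genes. The sequence TATAAA, searched on both strands, stood in 1 of 44 and 2 of 63 cluster promoters, or 2.27% and 3.17%, against 9.005% of protein-coding promoters. CCAAT, also searched on both strands, stood in 22.7% of the proximal and 52.4% of the distal cluster promoters, against 32.7%. Matches of the 2 motifs overlapped in none of the cluster promoters.

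The 4 sequences below show the middle and the low end of the CpG content behind these figures. For each cluster they are the promoter at or next to the median CpG ratio and the one with the lowest. Each is the 250 bases before the RefSeq start (GRCh38.p14), 5′ to 3′ on the gene's own strand, with every CpG in capitals. ZNF701 at chr19:52570037-52570286 (plus strand, ratio 0.797) and ZNF71 at chr19:56595052-56595301 (plus strand, 0.833) hold 20 and 25 CpGs. ZNF160 at chr19:53087038-53087287 (minus strand, 0.211) and ZNF446 at chr19:58476929-58477178 (plus strand, 0.114) hold 4 and 2. None of them is tied to a summit.
ZNF701: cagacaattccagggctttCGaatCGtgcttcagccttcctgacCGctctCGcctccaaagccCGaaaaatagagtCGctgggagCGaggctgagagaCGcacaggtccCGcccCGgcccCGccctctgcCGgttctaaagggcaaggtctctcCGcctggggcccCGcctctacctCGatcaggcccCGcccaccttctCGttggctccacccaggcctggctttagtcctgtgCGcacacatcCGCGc
ZNF71: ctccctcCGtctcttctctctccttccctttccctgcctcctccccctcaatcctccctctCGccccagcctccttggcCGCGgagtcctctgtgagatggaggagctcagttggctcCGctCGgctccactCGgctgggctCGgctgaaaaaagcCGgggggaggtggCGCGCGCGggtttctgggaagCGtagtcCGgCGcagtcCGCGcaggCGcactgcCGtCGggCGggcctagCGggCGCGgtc
ZNF160: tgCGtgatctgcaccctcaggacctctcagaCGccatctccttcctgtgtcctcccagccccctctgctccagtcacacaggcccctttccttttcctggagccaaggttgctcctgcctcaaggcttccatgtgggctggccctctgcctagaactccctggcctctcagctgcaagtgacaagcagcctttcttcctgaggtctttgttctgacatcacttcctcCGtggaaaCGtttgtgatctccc
ZNF446: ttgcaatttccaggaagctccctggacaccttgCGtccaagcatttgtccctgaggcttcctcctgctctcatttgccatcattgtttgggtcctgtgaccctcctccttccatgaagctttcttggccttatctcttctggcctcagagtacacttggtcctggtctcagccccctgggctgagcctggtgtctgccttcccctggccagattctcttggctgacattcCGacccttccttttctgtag

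All positions from here on are hg19. Each summit has a deposited score, a −log10 p or q from peak calling. Such scores rise with sequencing depth, which is unknown, so they rank peaks within a list, and values of different libraries are set side by side only as deposited. To compare conditions, H3K4me3 summits from all 4 lists were joined when at most 1 kb apart, and each joined group is called a promoter element. An element was marked by a library with a summit within 1 kb. It was strong in a library when its score was at or above the median over all elements that the library marked in the genome. For H3K4me3 that median was 165 in TGFb, 198 in SO1, 264 in H2030 and 204 in LCC. Intervals in brackets are Wilson 95% intervals and cover counting error only. With 1 library per condition and mark there was no test, and outside LCC H3K27ac no difference below has a replicate check.

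The clusters were dense in H3K4me3, the mark of gene starts, and H2030 had fewer such summits than the H2087 conditions. TGFb had 119 H3K4me3 summits in the clusters, SO1 119, H2030 77 and LCC 116. Per Mb, the density was 2.44 times that of the rest of the genome in TGFb, 2.46 times in SO1, 1.78 times in H2030 and 2.63 times in LCC. H2030 thus stood apart from the 3 H2087 conditions, which were close to one another. The rest of the genome was counted over the 100 kb bins that held a summit in any list, 2414.6 Mb in all. The lists themselves were of similar length, with 28850, 28627, 25624 and 26049 H3K4me3 summits in that order. In the stretch between the clusters H2030 had 30.0 H3K4me3 summits per Mb and LCC 30.8.

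The other marks did not share the H3K4me3 density. For H3K27ac, the ratio of density in the clusters to that in the rest of the genome was 1.12 in TGFb, 1.54 in SO1, 0.686 in H2030 and 1.13 and 1.15 in the LCC replicates. For H3K4me1 it was 0.759 in TGFb, 1.32 in SO1, 0.448 in H2030 and 0.835 in LCC. The H3K4me1 ratio was lower in the proximal than in the distal cluster. It was 0.574 and 0.890 in TGFb, 1.29 and 1.35 in SO1, 0.289 and 0.561 in H2030, and 0.628 and 0.982 in LCC. SO1 had the highest ratio of the 4 conditions for both marks and H2030 the lowest. Chromosome 19 is rich in genes, and in all 13 lists the clusters had fewer summits per Mb than the rest of the chromosome. For H3K4me3 the clusters had 29.0 in TGFb, 29.0 in SO1, 18.8 in H2030 and 28.3 in LCC, against 30.6, 29.7, 29.8 and 29.6 in the rest of the chromosome. That gap was wide in H2030. In the H2087 conditions it was narrow, and its direction is not sure with lengths counted in unlike ways.

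**Figure D1:**
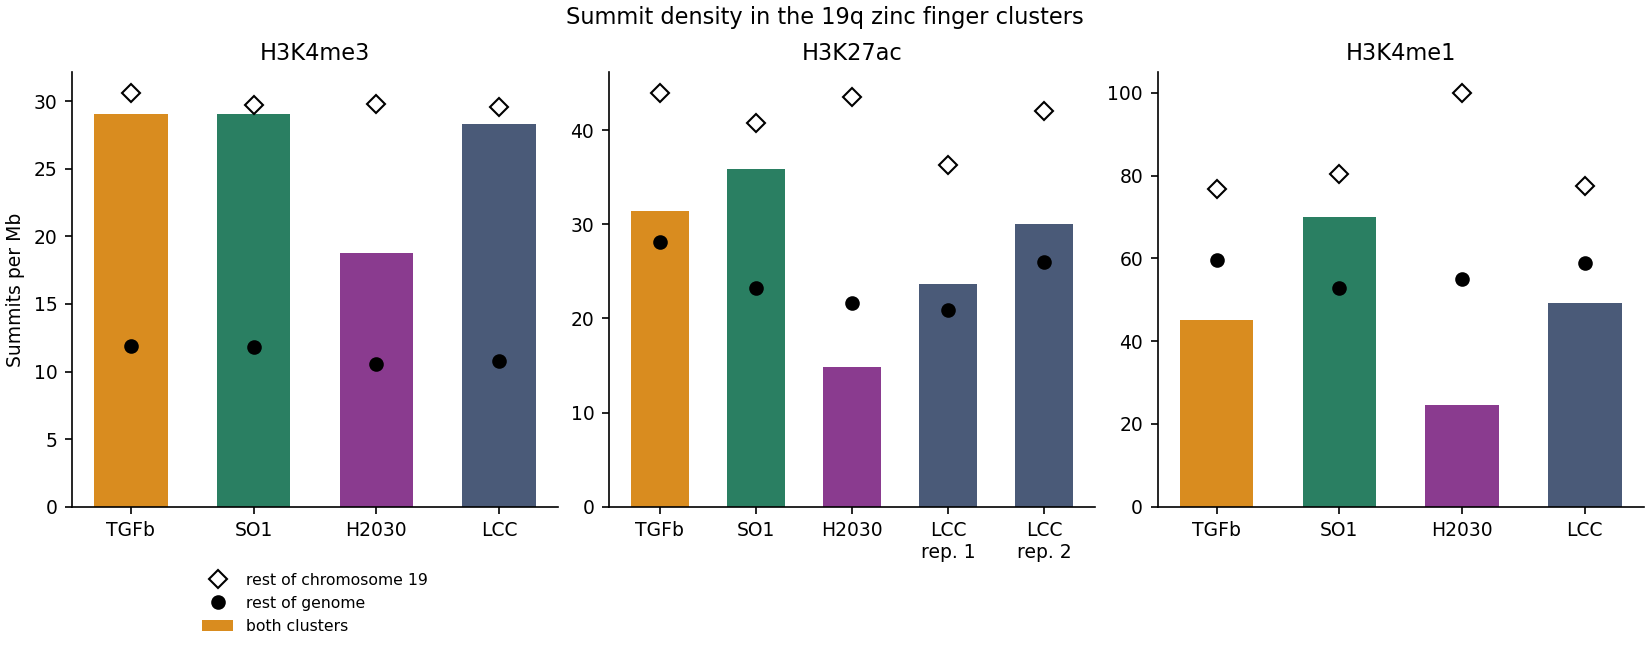
Summits per Mb (vertical axis) in both clusters (bars), in the rest of chromosome 19 (open diamonds) and in the rest of the genome (filled circles), for each library of the 3 marks. H3K4me3 bars stand well above the genome in all 4 conditions, while the H2030 bar is the lowest for each mark.

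Merging gave 127 promoter elements, 46 in the proximal and 81 in the distal cluster. That is 27.1 and 33.8 per Mb, against 16.4 in the rest of the genome. The elements were narrow, with a median length of 64 bp, so the 4 conditions placed their summits at nearly the same base. Shared H3K4me3 summits lay a median of 32.5 bp from the LCC summit in TGFb, 34 bp in SO1 and 37.5 bp in H2030. Of the 127 elements, 71 (55.9%) had H3K4me3 in all 4 conditions, against 41.3% of the 39776 elements in the genome. A further 42 (33.1%, against 14.3% in the genome) had it in TGFb, SO1 and LCC and not in H2030. The other elements were few: 5 (3.94%) were seen in SO1 alone, 5 (3.94%) in H2030 alone, 1 (0.787%) in TGFb alone and 0 in LCC alone. The last 3 had other combinations. Of the elements in the genome, 7.26% were seen in SO1 alone, 16.0% in H2030 alone, 4.90% in TGFb alone and 2.22% in LCC alone.

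Elements ran through the whole proximal cluster and left gaps in the distal one. Every 100 kb bin of the proximal cluster held at least 1 element, and the richest, 19:53400001-53500000, held 6. The median gap between neighbouring elements was 31.9 kb there and 19.9 kb in the distal cluster. In the distal cluster the richest bin, 19:58900001-59000000, held 9. The distal cluster had 4 bins with no element, starting at 56700001, 57200001, 57400001 and 57500001. Between 57350049 and 57615335, over 265 kb, none of the 13 libraries had a summit of any mark.

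The elements with the highest H3K4me3 scores in all 4 conditions give the constant core of the clusters. At 19:58331283-58331339 the H3K4me3 score was 590 in TGFb, 604 in SO1, 547 in H2030 and 611 in LCC. At 19:58790517-58790569 it was 603, 653, 534 and 573 in the same order, and at 19:57752235-57752273 it was 607, 667, 521 and 517. The 3 leading elements of the proximal cluster, 19:52773075-52773109, 19:52693755-52693853 and 19:52531443-52531469, scored from 364 to 543 over the 4 conditions. All 6 also carried H3K27ac in every library, with scores between 15.5 and 260. The 3 proximal elements all lie in the first 500 kb of their window, before the position where the H2030 pattern changes.

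The comparison of TGFb with LCC asks whether the treatment altered these promoters. TGFb had H3K4me3 at 115 of the 115 cluster elements that LCC marked (100%, 96.8 to 100). Over all LCC-marked elements of the genome, 6.55% lacked it in TGFb. Of the 98 cluster elements strong in LCC, none was weak or unmarked in TGFb, where 1.17% of such elements genome-wide were. By the stricter rule for a gain or a loss, a strong element with no summit of the other condition within 10 kb, TGFb gained 0 of 105 and lost 0 of 98 H3K4me3 elements (genome 0.0284% and 0%).

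SO1 also had nearly every LCC promoter. It marked 113 of the 115 LCC elements with H3K4me3 (98.3%, 93.9 to 99.5), where 11.3% of LCC-marked elements genome-wide lacked it. The 2 without it were weak in LCC: 19:58220445-58220454 scored 57.0 in TGFb and 23.7 in LCC, and 19:53494389-53494584 scored 8.21 in TGFb, 11.01 in H2030 and 6.91 in LCC. None of the 98 strong LCC elements was weak or unmarked in SO1 (genome 2.81%), and 0 of 109 were gained and 0 of 98 lost (genome 0.156% and 0.0702%).

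Among elements that LCC marked, strong and weak calls can show a rise in H3K4me3 only where LCC was weak. Higher scores at strong LCC elements are not seen by these calls. Of the 17 cluster elements with a weak LCC score, 7 were strong in TGFb (41.2%, 21.6 to 64.0), 11 in SO1 (64.7%, 41.3 to 82.7) and 1 in H2030 (5.88%, 1.05 to 26.98). Over the genome, 10.1% of weak LCC elements were strong in TGFb, 11.3% in SO1 and 7.95% in H2030. The cluster elements were not matched to the genome on LCC score, and some sat just under the LCC median. At 19:57683103-57683873 the H3K4me3 score was 142 in TGFb, 531 in SO1 and 142 in LCC, and H2030 had no summit within 1 kb. At 19:53496512-53496605 it was 74.5 in TGFb, 379 in SO1, 50.2 in H2030 and 77.2 in LCC. At 19:53540885-53540997 it was 198 in TGFb, 429 in SO1, 73.5 in H2030 and 137 in LCC. In these 3 elements, chosen after their values were seen, SO1 scored highest and TGFb lay near LCC or between LCC and SO1.

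**Figure D2:**
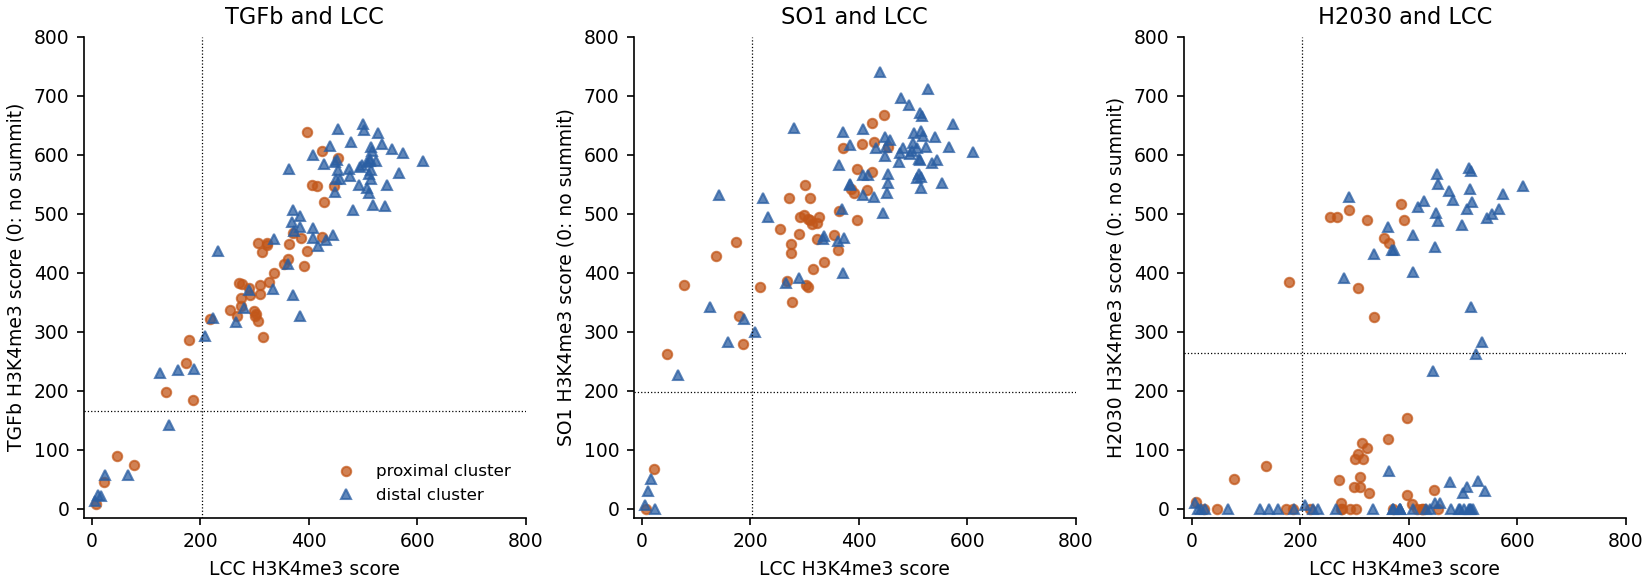
H3K4me3 score of each LCC-marked cluster element in TGFb, SO1 and H2030 (vertical axes, 0 where there is no summit within 1 kb) against its score in LCC (horizontal axis). Circles are the proximal and triangles the distal cluster, and dotted lines are each library's median over marked elements. TGFb and SO1 follow LCC, while 58 elements strong in LCC lie below the H2030 line.

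H2030 was different. It had H3K4me3 at 72 of the 115 LCC elements (62.6%, 53.5 to 70.9), and over the genome 32.2% of LCC-marked elements lacked it. By presence alone the clusters were thus close to the genome, where 67.8% of elements outside the clusters were marked. The strength of the elements set them apart from the genome. Of the 98 strong LCC elements, 31 had no H2030 summit within 1 kb, 27 were weak and 40 were strong. The 58 that were not strong make up 59.2% (49.3 to 68.4), against 13.7% of strong LCC elements over the genome. The 31 unmarked make up 31.6%, against 6.97%. In the stretch between the clusters, 8 of 38 strong LCC elements were not strong in H2030 (21.1%, 11.1 to 36.3). In the zinc finger regions at 19:20000-24000 kb and 19:37000-38000 kb, 11 of 12 (91.7%, 64.6 to 98.5) and 9 of 19 (47.4%, 27.3 to 68.3) were not. The high share was thus not particular to these 2 clusters.

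The share of strong LCC elements not strong in H2030 was 73.0% (57.0 to 84.6) in the proximal and 50.8% (38.6 to 62.9) in the distal cluster. With no summit within 10 kb required, H2030 lost 26 of the 98 elements (26.5%, 18.8 to 36.04), against 3.84% over the genome. These were 10 of the 37 strong LCC elements of the proximal and 16 of the 61 of the distal cluster. H2030 gained 1 of 43 (2.33%, 0.412 to 12.1), against 2.29%. The gain was at 19:56603531, where H2030 had an H3K4me3 score of 341, and the nearest LCC summit lay 11214 bp away.

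The 5 losses with the highest LCC scores all lay in the distal cluster. The ranking fixed this, because no LCC H3K4me3 score in the proximal cluster exceeded 454. At 19:58193612-58193647 H3K4me3 scored 515 in TGFb, 632 in SO1 and 519 in LCC, and the nearest H2030 summit was 45069 bp away. At 19:58458740-58458794 it scored 574 in TGFb, 562 in SO1 and 515 in LCC. The elements at 19:58011528-58011557, 19:58038992-58039039 and 19:58400069-58400157 had LCC scores between 502 and 512. At all 5, H2030 also lacked H3K27ac and H3K4me1 within 1 kb, whereas TGFb, SO1 and both LCC replicates had H3K27ac at each. In LCC the 5 scored between 502 and 519, and the 3 shared elements of the distal cluster above between 517 and 611.

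In the proximal cluster, the elements that H2030 lacked or marked weakly were neighbours. From 19:52800651 to 54041694, over 1241 kb, 28 consecutive strong LCC elements were not strong in H2030, 26 of them inside the window. This was the longest of 1382 such runs in the genome, where the median run was 1 element, and the second-longest, with 11, lay at 19:20011933-23578093, in another region of zinc finger genes. Within the run 12 elements were unmarked in H2030 and 16 were weak, with H2030 scores between 7.97 and 154 (median 51.4), against LCC scores between 218 and 454 (median 325). From 52800651 to the end of the window, 0 of 34 elements were strong in H2030. For the 26 of them that were strong in LCC this follows from how a run is defined. With scores of at least 10 only, an alternative chosen after seeing the data, the longest run had 17 elements.

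The other marks followed over the same 1241 kb. Of the 28 elements, 6 had H3K27ac in H2030, against 24 in both LCC replicates. H3K4me1 had 51 summits there in TGFb, 97 in SO1, 5 in H2030 and 57 in LCC. H3K4me3 still had 20 summits there in H2030, against 35 in TGFb, 34 in SO1 and 35 in LCC, so the region was not empty of H2030 peaks.

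Ahead of the run, H2030 and LCC had equal numbers of strong elements. The first 500.65 kb of the proximal window held 12 elements, and 11 of them were strong in H2030, with scores between 325 and 517 (median 490). In LCC the same 12 scored between 180 and 391 (median 314), and 11 were strong. H3K27ac marked 10 of the 12 in H2030, and 9 and 10 in LCC replicates 1 and 2. H3K4me1 had 22 summits there in H2030, against 10 in TGFb, 25 in SO1 and 10 in LCC. The exception was the first element, 19:52391013-52391050, which H2030 did not mark and which scored 344 in TGFb, 433 in SO1 and 275 in LCC. The last strong H2030 element of the cluster, at 52773075-52773109, scored 490. Its neighbour, 19:52800651-52800662, was the first element of the run and scored 447 in TGFb, 458 in SO1, 104 in H2030 and 323 in LCC.

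**Figure D3:**
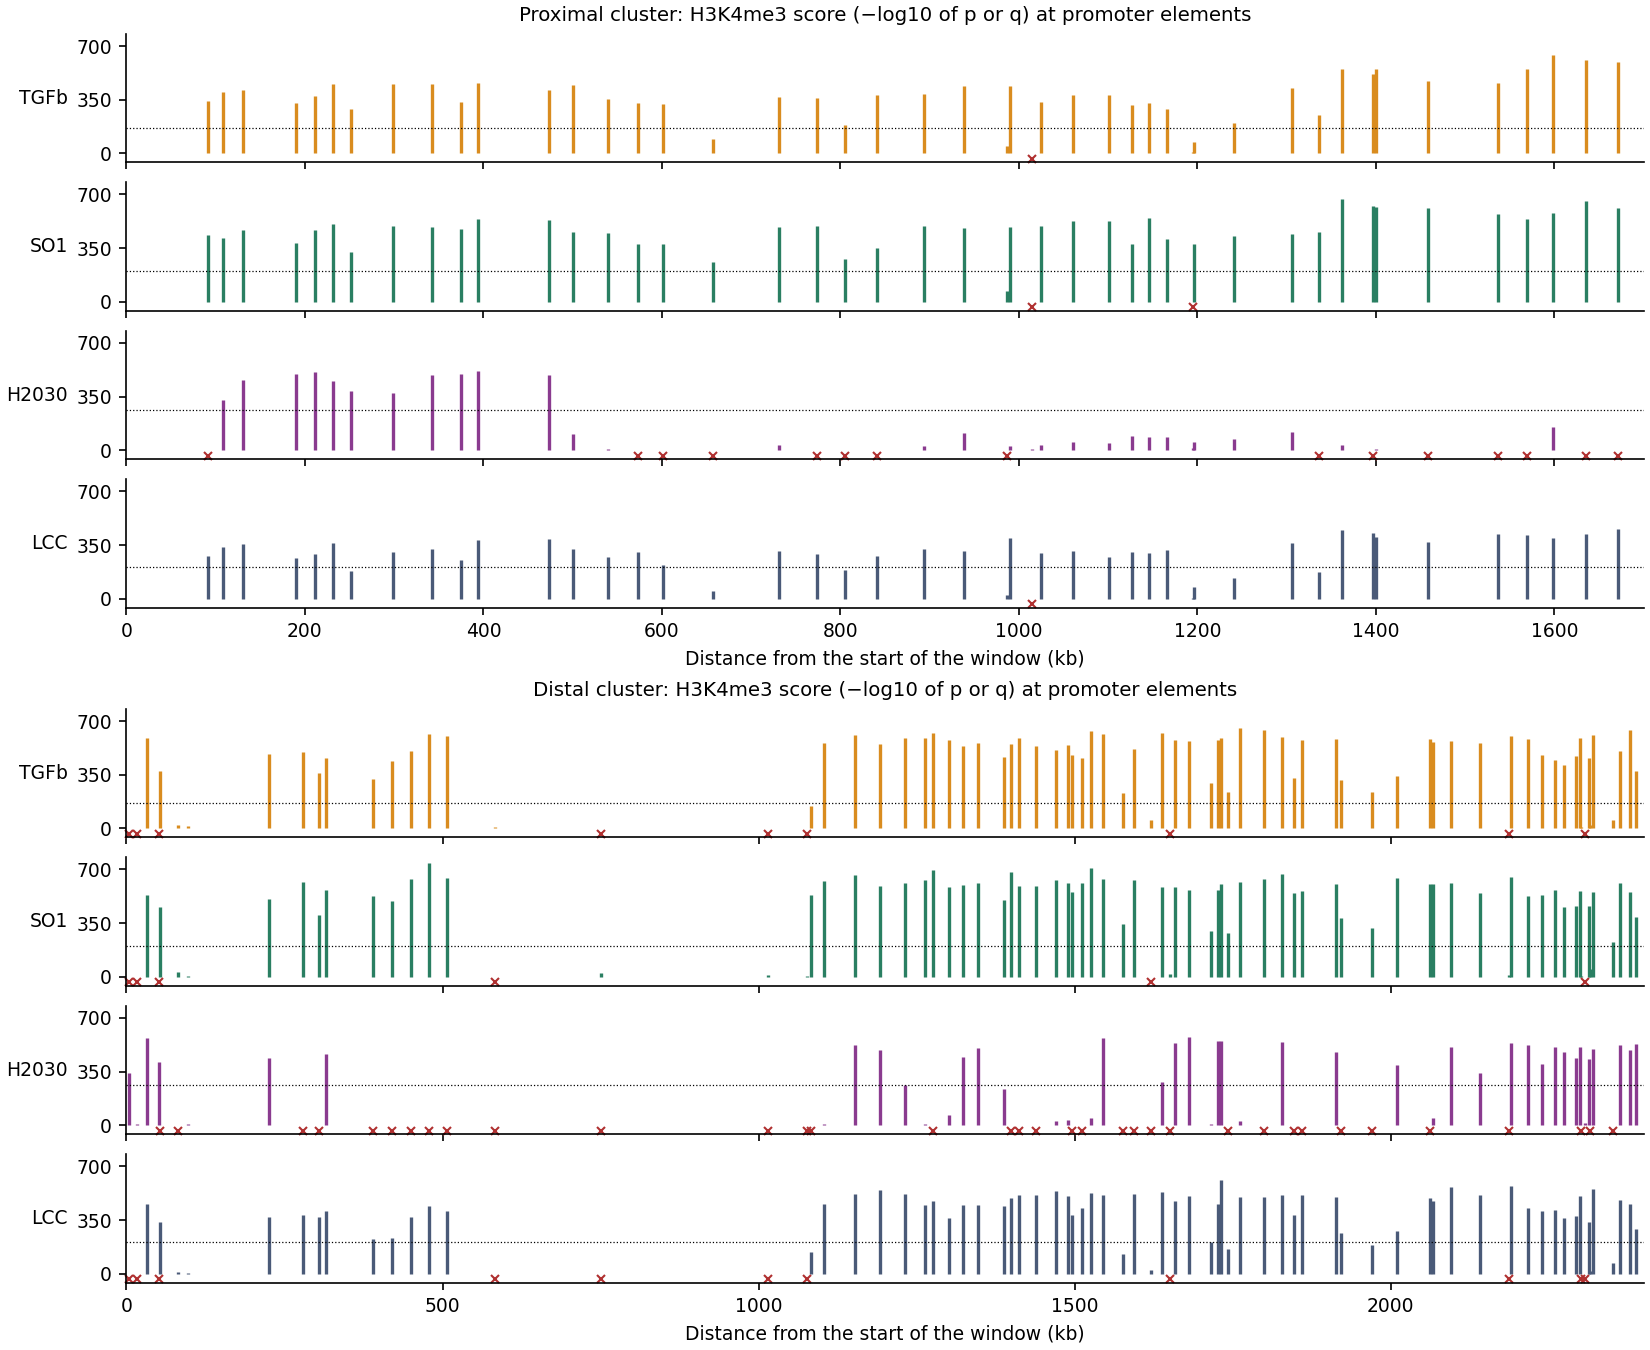
H3K4me3 score (vertical axes) at each promoter element of the proximal (upper 4 panels) and the distal cluster (lower 4 panels) by distance from the start of the window in kb, in TGFb, SO1, H2030 and LCC. Crosses mark elements without a summit within 1 kb, and dotted lines are each library's median over marked elements. In the proximal cluster no H2030 score exceeds 154 from 501 kb on.

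In the distal cluster, strong and absent H2030 elements alternated in shorter runs. The longest, 19:57988663-58125878, held 9 elements, 5 of them unmarked and 4 weak in H2030. The next, 19:56989707-57703202, held 6 elements over 713 kb, with 5 unmarked. A run of 4 at 19:57832022-57901540 starts with an element just under the threshold, with an H2030 score of 263.2 against a median of 263.6. Towards the telomere the loss ended. All 14 strong LCC elements from 19:58694937 to 58987892 were strong in H2030, with scores between 342 and 534 (median 504) there and between 289 and 573 (median 441) in LCC. TGFb and SO1 had no run in either cluster.

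One of the H2030 differences depends on the merging distance. At 19:56651960 H2030 had an H3K4me3 summit of score 414, and 1173 bp away, at 19:56653133-56653262, TGFb scored 373, SO1 457 and LCC 334 with no H2030 summit within 1 kb. Merging at 1 kb splits these into 2 elements, and the second counts among the 31 unmarked in H2030.

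H3K27ac in the clusters lay mostly at promoters. A summit of the same condition's H3K4me3 within 1 kb accompanied 86.8% of H3K27ac summits in TGFb (79.9 to 91.6), 81.6% in SO1 (74.6 to 87.1), 91.8% in H2030 (82.2 to 96.4), and 94.8% (88.5 to 97.8) and 91.1% (84.7 to 94.9) in the LCC replicates. In the rest of the genome the shares were 32.2%, 39.0%, 35.2%, 39.0% and 32.2% in that order. H3K4me1 was placed likewise. Within 2.5 kb of H3K4me3 of the same condition lay 83.8% of H3K4me1 summits in TGFb, 75.3% in SO1, 83.2% in H2030 and 83.7% in LCC, against 27.9%, 30.6%, 27.4% and 26.3% in the rest of the genome. The clusters thus held a smaller share of summits of the kind seen at enhancers away from promoters than the rest of the genome. In SO1, 17.7% of the cluster H3K27ac summits had H3K4me1 without H3K4me3 within 1 kb, against 51.5% elsewhere. Promoter elements are also denser in the clusters, and the part of that density in this difference was not tested.

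**Figure D4:**
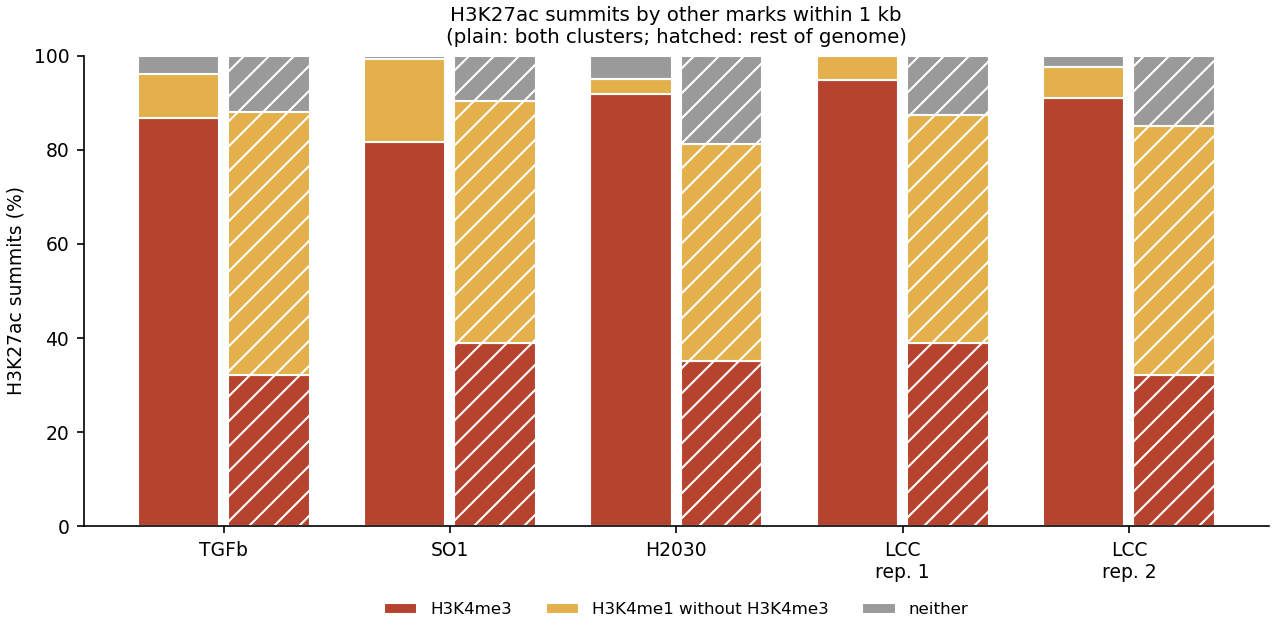
Share of H3K27ac summits (vertical axis, %) with H3K4me3 of the same condition within 1 kb, with H3K4me1 and no H3K4me3, or with neither, in both clusters (plain bars) and the rest of the genome (hatched bars), for each H3K27ac library. The H3K4me3 class takes between 81.6% and 94.8% of the summits in the clusters and between 32.2% and 39.0% elsewhere.

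In TGFb, SO1 and LCC, cluster promoters with strong H3K4me3 carried strong H3K27ac less often than promoters in the rest of the genome. Of the strong H3K4me3 elements, H3K27ac was strong too at 23 of 105 in TGFb (21.9%, 15.1 to 30.7), 32 of 109 in SO1 (29.4%, 21.6 to 38.5), 22 of 43 in H2030 (51.2%, 36.8 to 65.4), and 18 and 21 of 98 in the LCC replicates (18.4%, 11.9 to 27.2, and 21.4%, 14.5 to 30.5). The shares in the rest of the genome were 59.3%, 51.7%, 63.6%, 55.0% and 64.0% in that order. The H2030 interval includes its genome share, and those of the other 4 libraries do not. No H3K27ac summit was found at 5.71% of the strong H3K4me3 elements in TGFb, 4.59% in SO1, 2.33% in H2030 and 18.4% and 4.08% in the LCC replicates, against 9.81%, 10.7%, 8.97%, 10.7% and 7.23% in the rest of the genome. LCC replicate 1 lay above its genome share and the other libraries below theirs, on 1 to 6 cluster elements each. In the proximal cluster the strong share was 2.44% in TGFb, 18.6% in SO1, 36.4% in H2030 and 2.70% and 5.41% in LCC. In the distal cluster it was 34.4% in TGFb, 36.4% in SO1, 56.2% in H2030 and 27.9% and 31.1% in LCC. The H2030 shares rest on fewer elements, 43 in all and 11 in the proximal cluster.

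The LCC replicates give the only measure of experimental error. Of the replicate 1 summits in the clusters, 90.7% had a replicate 2 summit within 500 bp (83.3 to 95.04), and 73.2% of replicate 2 summits had one in replicate 1 (64.7 to 80.2). TGFb had a summit at 87.6% and 85.4% of the replicate 1 and replicate 2 summits, SO1 at 81.4% and 78.05%, and H2030 at 41.2% and 37.4%. In the rest of the genome replicate 2 had a summit at 69.8% of the replicate 1 summits and replicate 1 at 56.0% of the replicate 2 summits, while TGFb had 64.3% and 62.4%, SO1 59.1% and 53.2%, and H2030 37.1% and 32.6%. All of these shares were higher in the clusters than in the rest of the genome, and the 95% intervals of the H2030 shares include the genome values. Replicate 2 had more of the replicate 1 summits than TGFb had, but with scores of at least 10 TGFb had 93.2% and replicate 2 had 91.5%. In the other direction, replicate 1 had fewer of the replicate 2 cluster summits than TGFb and SO1 had. With scores of at least 10 replicate 1 had 56.4% of them, TGFb 91.5% and SO1 83.0%. By these shares TGFb and SO1 were no further from replicate 2 than replicate 1 was. The replicate 1 list was the shortest for H3K27ac, with 50628 summits. At the elements, replicate 2 marked 85 of the 86 that replicate 1 marked, and replicate 1 marked 85 of the 102 that replicate 2 marked. By the 10 kb rule no strong cluster element of either replicate lacked the other (genome 0.0166% and 0.045%).

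Measured at the 85 elements marked in both LCC replicates, H3K27ac was also marked at 84 in TGFb (98.8%, 93.6 to 99.8), at 84 in SO1 (98.8%, 93.6 to 99.8) and at 44 in H2030 (51.8%, 41.3 to 62.1). Over the genome 5.09%, 8.1% and 28.8% of such elements were unmarked in TGFb, SO1 and H2030. H2030 lost 5 of 23 strong elements by the 10 kb rule (21.7%, 9.66 to 41.9), against 10.5% over the genome, and the wide interval includes that value. All 5 were in the distal cluster, but few proximal elements could be called. Of the strong LCC H3K4me3 elements, 1 and 2 of 37 proximal ones had strong H3K27ac in replicates 1 and 2. In the distal cluster 17 and 19 of 61 had it. Without regard to strength, H2030 lacked H3K27ac at 17 of 31 proximal and 24 of 54 distal elements that both replicates marked. The first of the 5 losses, 19:57050485-57050547, had H3K27ac scores of 171 in TGFb, 213 in SO1 and 52.5 and 57.5 in the LCC replicates. The others were 19:58315159-58315256, 19:57703087-57703202, 19:58361350-58361494 and 19:56904769-56904792, with LCC replicate 1 scores between 22.0 and 46.2. At 3 of these 5, H2030 kept a weak H3K4me3 summit, with scores of 7.25, 9.46 and 26.3. H2030 gained 0 of 22 strong elements (genome 4%), and TGFb gained 0 of 24 and lost 0 of 23 (genome 0.194% and 0.301%).

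SO1 gained 1 of 34 strong H3K27ac elements (2.94%, 0.521 to 14.9), against 0.501% over the genome, and lost 0 of 23 (genome 0.708%). The gain was at 19:53494389-53494584, where H3K27ac scored 9.20 in TGFb, 184 in SO1 and 12.4 in H2030. The nearest LCC H3K27ac summit lay 28418 bp away. H3K4me1 scored 21.2 in SO1 and 6.12 in H2030 there, and LCC had none within 1 kb. H3K4me3 was weak or missing at this site in all 4 conditions. The nearest SO1 H3K4me3 summit was 1928 bp away, at the element 19:53496512-53496605 described above, where SO1 also stood out.

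Sites with H3K27ac and no H3K4me3 of any condition within 2.5 kb were rare, with 12 in TGFb, 22 in SO1, 5 in H2030 and 3 and 9 in the LCC replicates. That is 9.30%, 15.0%, 8.20%, 3.09% and 7.32% of the H3K27ac summits of the clusters, against 56.0%, 49.7%, 51.2%, 44.0% and 51.1% in the rest of the genome. Of those in LCC replicate 2, the highest was 19:53689782, with 11.9 in TGFb, 6.29 in SO1 and 9.74 and 26.4 in the LCC replicates, and the second was 19:52546817 with 18.1. The third, 19:53831209, scored 30.4 in TGFb, 107 in SO1 and 17.4 in LCC replicate 2, and replicate 1 had no summit there. H3K4me1 was also present at this site, with 4.00 in TGFb, 32.3 in SO1 and 7.41 in LCC. The distal cluster had only 2 such replicate 2 summits, 19:58903977 and 19:58270093, with scores of 4.22 and 4.10. H2030 had no H3K27ac summit within 1 kb of any of the 5.

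SO1 carried the most H3K4me1 in the clusters. It had 287 summits there, TGFb 185, H2030 101 and LCC 202. Counted in 100 kb bins, SO1 was above LCC in 15 of the 17 proximal bins, equal in 2 and below in none, and in the distal cluster above in 16 of 24, equal in 7 and below in 1. TGFb was above LCC in 5, equal in 6 and below in 6 proximal bins, and above in 4, equal in 11 and below in 9 distal ones. The SO1 surplus was thus spread over both clusters and was not seen in TGFb. Over the rest of the genome SO1 had fewer summits per Mb than LCC, 52.9 against 59.0. On chromosome 19 it had more outside the clusters too, 76.2 against 68.5 in the stretch between them and 80.5 against 77.6 over the rest of the chromosome. In the zinc finger regions at 19:20000-24000 kb and 19:37000-38000 kb SO1 had 78 and 50 H3K4me1 summits, against 42 and 30 in LCC.

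Most LCC summits had an SO1 counterpart, and SO1 had further ones. Of the 287, 102 had no LCC summit within 1 kb (35.5%, 30.2 to 41.2), against 28.7% in the rest of the genome. In the other direction, 17 of the 202 LCC summits had none in SO1 (8.42%, 5.32 to 13.1), against 34.9%. The 102 had a median score of 7.70, against 19.4 for those shared, and in the rest of the genome the medians were 6.82 and 22.3. Of the 102, 52 lay within 2.5 kb of an SO1 H3K4me3 summit. That is a smaller share than the 75.3% of all 287 SO1 H3K4me1 summits in the clusters. In the rest of the genome the share was 14.4% of the unshared SO1 summits, against 30.6% of all SO1 H3K4me1 summits. The unshared summits thus lay near H3K4me3 less often than SO1 summits as a whole, in the clusters and elsewhere. The SO1 list was the shortest of the 4 for H3K4me1, with 128082 summits, against 142611 in LCC, and its median score over the genome was 15.8, against 11.6 in LCC. The part of depth in these counts was not tested. At the LCC-marked elements, H3K4me1 was also marked at 95 of 101 in TGFb, 95 of 101 in SO1 and 38 of 101 in H2030 (37.6%, 28.8 to 47.4). Over the genome 11.9%, 13.1% and 32.7% of these were unmarked.

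**Figure D5:**
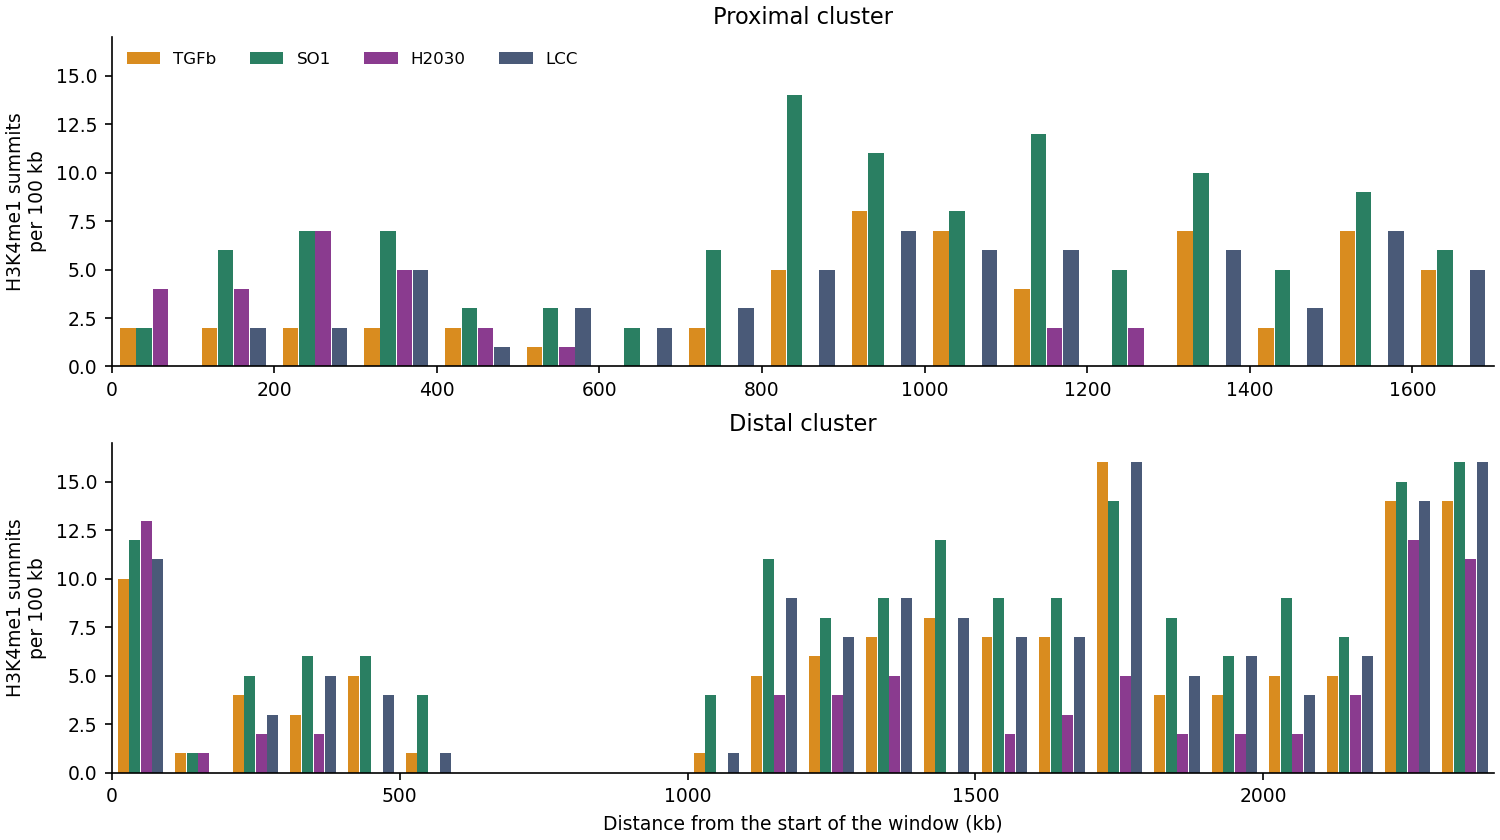
H3K4me1 summits per 100 kb bin (vertical axis) by distance from the start of the window (horizontal axis, kb) in TGFb, SO1, H2030 and LCC. SO1 is above LCC in 15 of 17 proximal bins, and H2030 is at 0 in 9 of them.

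H2030 H3K4me1 was sparse over much of the clusters. It was at 0 in 9 of the 17 proximal and 8 of the 24 distal bins, while H2030 H3K4me3 was at 0 in 3 and 8. H2030 H3K4me1 was above LCC in 5 proximal bins, 4 of them in the first 500 kb, equal in 1 and below in 11. In the distal cluster it was above in 2, equal in 4 and below in 18. The bins above LCC in the proximal cluster thus lay mostly ahead of the run of 28 elements. In the stretch between the clusters it was higher than LCC, with 90.0 summits per Mb against 68.5.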

How the data were processed

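Each file deposited by the authors lists peak summits 1 bp wide on hg19 with a score, read as the −log10 of a p or q value because the lowest score, 1.30107, lies just above the −log10 of 0.05, 1.30103. Bowtie2, SAMtools and deepTools were used, per the submitters' processing notes. The sources used here do not give the peak caller or its control. Every file has peak names of a single library, which shows separate calling per library. The files hold no widths or read counts, so depth is unknown.

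Summits in the windows were counted per library and divided by length. Elements joined H3K4me3 summits of any condition up to 1000 bp apart. Marked meant a summit within 1000 bp, and strong a score at or above the library's median over marked elements. Gained and lost needed a strong element and no summit of the other side within 10 kb, for LCC H3K27ac in both replicates. Summits of replicates were shared within 500 bp. Python 3.11.15 with numpy 2.4.6 and pandas 2.3.3 was used, and the gain and loss rule was tested on simulated lists. Named elements were the 3 per cluster with the highest lowest score over the 4 conditions, up to 5 gains and losses per comparison, the 3 highest H3K27ac summits of LCC replicate 2 per cluster away from H3K4me3, and the bins with most and no elements. The members, windows and rules were chosen with earlier results of these data known. Groups were taken from the sample titles.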

Additional observations from a re-analysis of the deposited data

How the results depend on the processing

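The alternatives gave 284 values beside those reported, of which 213 stayed within counting error or 1.5 times the count. The largest group of changes came from keeping only scores of at least 10. The share of cluster H3K27ac summits with H3K4me3 was then 92.7% in TGFb, 88.1% in SO1 and 100% and 95.7% in the LCC replicates, TGFb marked 100% of LCC H3K27ac elements and 68.3% of LCC H3K4me1 elements, SO1 gained 2 H3K27ac elements, H2030 gained 0 H3K4me3 elements and lost 3 H3K27ac elements, and the longest H2030 run held 17 elements. With H3K4me3 required within 500 bp the H3K27ac shares were 73.6% in TGFb, 65.3% in SO1, 78.7% in H2030 and 78.4% and 78.05% in LCC. With marks required within 250 bp, SO1 marked 90.6% of LCC H3K27ac elements, and TGFb, SO1 and H2030 marked 60%, 40% and 0% of the LCC H3K4me1 elements, which were then few. Within 2500 bp SO1 marked 100% for H3K27ac and 99.1% for H3K4me1. Without the strength condition TGFb gained 1, SO1 gained 2 and lost 1, and H2030 gained 2 H3K4me3 elements. For H3K27ac TGFb then gained 4 and lost 1, SO1 gained 10, and H2030 gained 6 and lost 39. With no summit within 1 kb H2030 gained 2 H3K4me3 elements, and with none within 25 kb it gained 0 H3K4me3 elements and lost 3 H3K27ac elements. For gains and losses under these alternative settings no genome share was calculated, so the counts cannot be set against the genome. The cause of these differences was not tested.

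The share of strong LCC elements not strong in H2030 lay between 57.1% and 59.2% under 4 alternatives chosen after seeing the data, including the LCC median applied to H2030. Leaving out either LCC H3K27ac replicate changed none of the 18 values it bears on by more than counting error or 1.5 times. No paired analysis was possible because no result comes from a test and only 1 condition and mark has replicates. Scores depend on a depth that is unknown, weak summits are the first to be missed in a shallow list, and a single library per condition leaves differences between cultures unmeasured.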
